A study of Homo sapiens with 2 samples.

Results

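Keratins are the intermediate filament proteins of epithelial cells, and the genes described here are the protein-coding human keratins with a symbol of KRT, a number and at most 1 letter. The members were taken from probe sets annotated to exactly 1 gene, averaged per gene, which gave 48 keratins among 18377 genes. The RefSeq gene table used for names holds 55 protein-coding keratins, and KRT6A, KRT6B, KRT6C, KRT17, KRT81, KRT82 and KRT86 were not analysed here. Members were placed by textbook site of expression into 5 simple epithelial, 18 squamous and 23 hair keratins, with KRT23 and KRT222 left in no class.

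EBC1-R is a subline of EBC1 that was selected with stepwise more PHA-665752, a MET kinase inhibitor, and was kept in medium with 3 µM of MET inhibitor. EBC1, its parental line, is an established human lung squamous cell carcinoma line in which the MET gene is amplified. The study set the resistant line against the parental line to look for mechanisms of resistance, with 1 array of EBC1-R and 1 array of EBC1. EBC1-R is a selected population kept in drug, so selection and exposure cannot be told apart, and no replicate gives any value below an error or a test.

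Keratin filaments are built from pairs, each of a type I (acidic) and a type II (basic or neutral) keratin, and the pair in use depends on the epithelium. Single-layered epithelia use KRT8 and KRT18 with KRT7, KRT19 and KRT20, the basal layer of stratified epithelium uses KRT5 and KRT14, and the layers above it change to other pairs such as KRT1 with KRT10 or KRT4 with KRT13. Hair keratins form the hair shaft and the sheath around it. Tumours often keep the keratins of their origin, which is why keratins serve as pathology markers, KRT5 being one for squamous lung carcinoma and KRT7 one for lung adenocarcinoma.

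Levels are the deposited values, taken as log2 intensities, and a difference is EBC1-R minus EBC1 on that scale. A gene passed the level filter when the higher of its values reached 7.41, the median of that quantity over all genes. Only 5 keratins passed, KRT7, KRT8, KRT18, KRT19 and KRT80, and the other 43 were under the filter on both arrays, where low signal is not separated from background. KRT80, the member just inside, had a higher value of 8.82, and KRT14, the member just outside, one of 7.26. The epithelial markers EPCAM (11.25 in EBC1-R and 11.33 in EBC1) and CDH1 (12.06 in EBC1-R and 11.96 in EBC1) passed. Of the squamous markers, KRT5, DSG3 and SOX2 were under the filter on both arrays, and KRT6A and TP63 were not analysed here, so the measured squamous markers do not bear out the squamous label of the line at this level. Of 10 measured leukocyte, fibroblast and endothelial markers, only COL1A1 passed, at 7.61 in EBC1-R and 7.64 in EBC1, and all 10 differed by between -0.15 and 0.09.

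**Figure D1:**
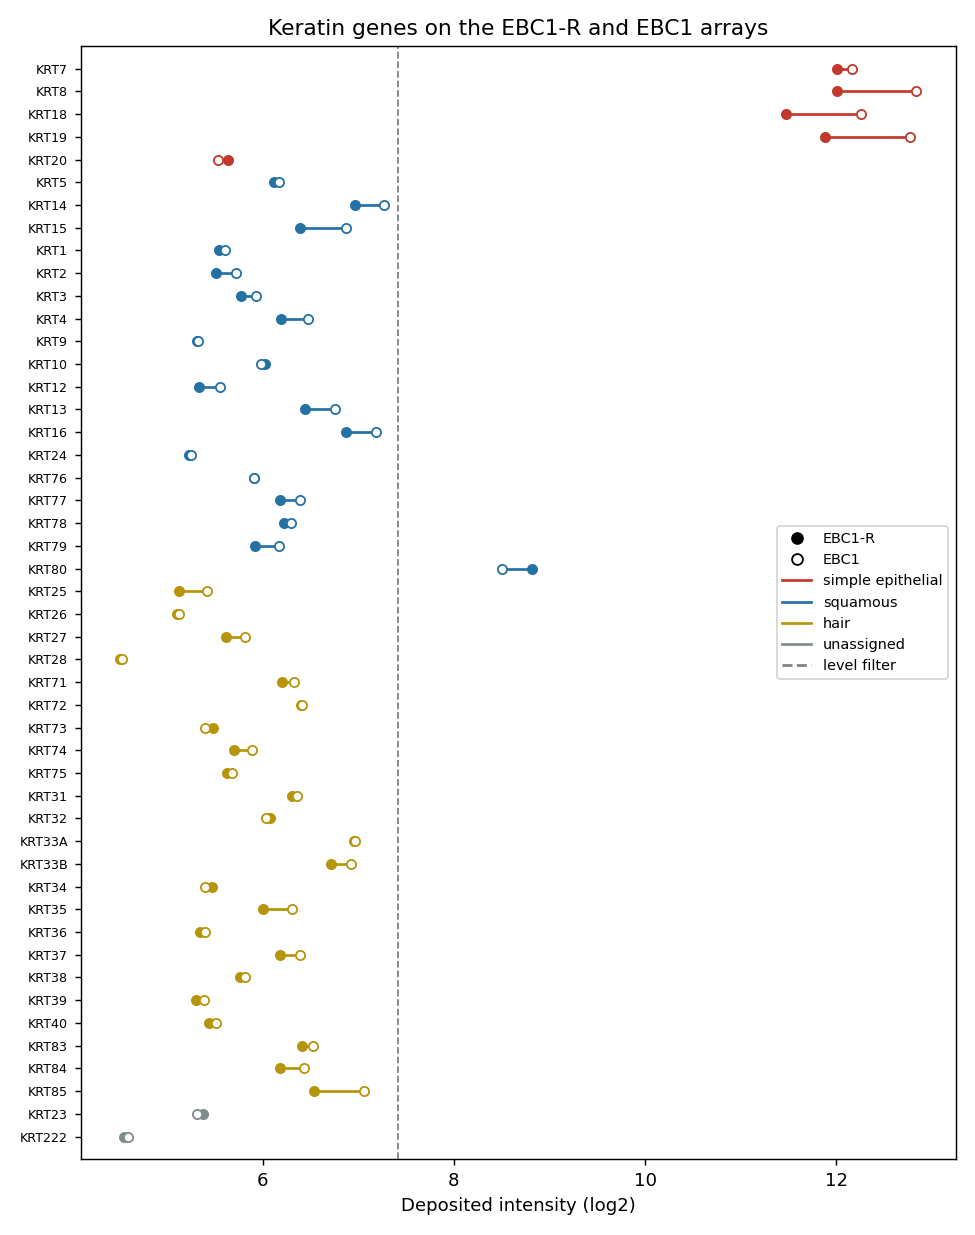
Deposited log2 intensity of each of the 48 keratin genes (1 row each) on the EBC1-R array (filled) and the EBC1 array (open), coloured by class, with the level filter of 7.41 as a dashed line. KRT7, KRT8, KRT18 and KRT19 lie above 11 on both arrays, KRT80 lies between 8 and 9, and the other 43 lie under the filter.

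Of the simple epithelial keratins, KRT8, KRT18 and KRT19 were lower in EBC1-R by similar amounts, while KRT7 differed little. These were the 3 of 48 keratins that differed at least 1.5-fold, and all 3 were lower. In comparison, 3.16% of all genes were at least 1.5-fold lower in EBC1-R. These 3 were also among the 5 keratins above the level filter, where 5.5% of all genes were at least 1.5-fold lower. No keratin was at least 1.5-fold higher, against 4.41% of all genes. No keratin differed 2-fold in either direction, against 2.14% of all genes. Most keratins, 43 of 48, were under the filter, where such differences were rarer. Of 9188 genes under it, 35 were at least 2-fold higher, 10 at least 2-fold lower and 165 at least 1.5-fold higher. There is no replicate array, so these are descriptions of a pair of arrays.

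KRT8, the type II keratin of simple epithelia, was at 12.01 in EBC1-R and 12.83 in EBC1. The difference of -0.83 made it 1.77-fold lower in EBC1-R. A promoter window of KRT8 is shown because KRT8 is the 1 of these 3 lower keratins with an entry in the sequence table. It is set beside that of KRT5, the basal squamous type II keratin that stayed under the filter. Each window follows 1 annotated start, and which start these cells use was not tested. Both are RefSeq sequences of build GRCh38.p14 from 250 bases before to 50 after the annotated start, on the minus strand, at chr12:52926420-52926719 for KRT8 and chr12:52520345-52520644 for KRT5. Capitals mark the match found to CCGGAA, a motif that ETS factors can bind, which reads as TTCCGG on the strand printed.
KRT8: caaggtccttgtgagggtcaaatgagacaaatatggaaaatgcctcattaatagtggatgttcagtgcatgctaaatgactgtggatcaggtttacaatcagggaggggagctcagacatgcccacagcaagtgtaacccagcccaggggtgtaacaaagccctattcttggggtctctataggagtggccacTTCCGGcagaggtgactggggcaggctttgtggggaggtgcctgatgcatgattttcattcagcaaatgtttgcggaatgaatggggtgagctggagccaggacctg
KRT5: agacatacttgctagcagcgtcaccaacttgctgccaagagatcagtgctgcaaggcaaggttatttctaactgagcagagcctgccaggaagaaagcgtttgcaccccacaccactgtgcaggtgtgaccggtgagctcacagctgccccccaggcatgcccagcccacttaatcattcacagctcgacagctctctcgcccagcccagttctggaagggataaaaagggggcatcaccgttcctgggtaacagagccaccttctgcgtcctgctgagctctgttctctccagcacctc

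Matches to 4 motifs were sought on both strands, namely TGANTCA (AP-1), CCGGAA (ETS), GGGCGG (the GC box) and TATAAA (the TATA box), none of which overlapped in the windows printed. KRT8 held the single ETS match and KRT5 held no exact match to any of the 4. Near matches were not counted. Of 33 measured keratins with a sequence, 20 held TATAAA, against 11.5% of 35116 promoter windows of the same length. Only 2 of the 33 were simple epithelial, KRT8 and KRT20, and neither held TATAAA. KRT7, KRT18, KRT19 and KRT80 had no sequence, so the counts mostly describe squamous and hair keratins under the filter. AP-1 matches were in 0 of the 33 keratins, against 7.71% of all windows, ETS matches in 3, against 17.2%, and GC boxes in 6, against 45%. A keratin with several annotated starts counted where any of its windows held the motif. These counts describe letters in a window and not sites in use.

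KRT18, the type I partner of KRT8, was at 11.47 in EBC1-R and 12.26 in EBC1, a difference of -0.78 or 1.72-fold lower. Its 2 probe sets differed by -0.77 and -0.80. A further probe set, annotated to both KRT18 and the microRNA gene MIR622, was at 11.88 in EBC1-R and 12.73 in EBC1. The KRT8 and KRT18 differences thus lay 0.04 apart, closer than 0.16, the pooled SD with which several probe sets of 1 gene differed in this comparison. That SD was taken over 374 genes above the level filter and covers no variation between cultures. The genes are neighbours on chromosome 12. On the far side of KRT8, KRT78 and KRT79 differed by -0.07 and -0.26 under the filter. On the far side of KRT18, EIF4B, a translation initiation factor, was at 10.65 in EBC1-R and 10.48 in EBC1. Beyond it, TNS2 was under the filter and SPRYD3 was at 9.02 in EBC1-R and 8.87 in EBC1. The neighbours on the KRT8 side were under the filter, so a shared difference could not be judged there. Whether the region changed as a whole was not tested (neighbours were chosen after values were seen).

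KRT19, a type I keratin of simple and ductal epithelium that lacks most of the usual tail domain, was at 11.88 in EBC1-R and 12.77 in EBC1. It had the largest difference of the 48 members, -0.89 or 1.86-fold lower in EBC1-R. KRT19 lies on chromosome 17. Of all genes above the level filter, 2.18% had a difference as low as that of KRT19 or lower, against 2.78% for KRT8 and 3.09% for KRT18.

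KRT7, a type II keratin of glandular and ductal epithelium, was at 12.00 in EBC1-R and 12.17 in EBC1. Its difference of -0.16 was about the size of the SD between probe sets of 1 gene, and 29.8% of genes above the filter had one as low or lower. KRT20, the intestinal and urothelial surface keratin, was under the filter at 5.64 in EBC1-R and 5.53 in EBC1. The simple epithelial class was therefore not uniform, with 3 members between -0.89 and -0.78 and the other two nearer to 0. The bright keratins were also set against genes of like brightness, with a bound chosen after values were seen. Of 184 genes with a mean level of at least 11.86, that of KRT18, 6 were at least 1.5-fold lower in EBC1-R, or 3.26%. KRT8, KRT18 and KRT19 were 3 of these 6, beside HBEGF, ITGA2 and ANXA5, and the median difference of the 184 was 0.01. The bound places KRT7, KRT8, KRT18 and KRT19 inside the 184, so the 3.26% includes keratins and is no separate yardstick for them.

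**Figure D2:**
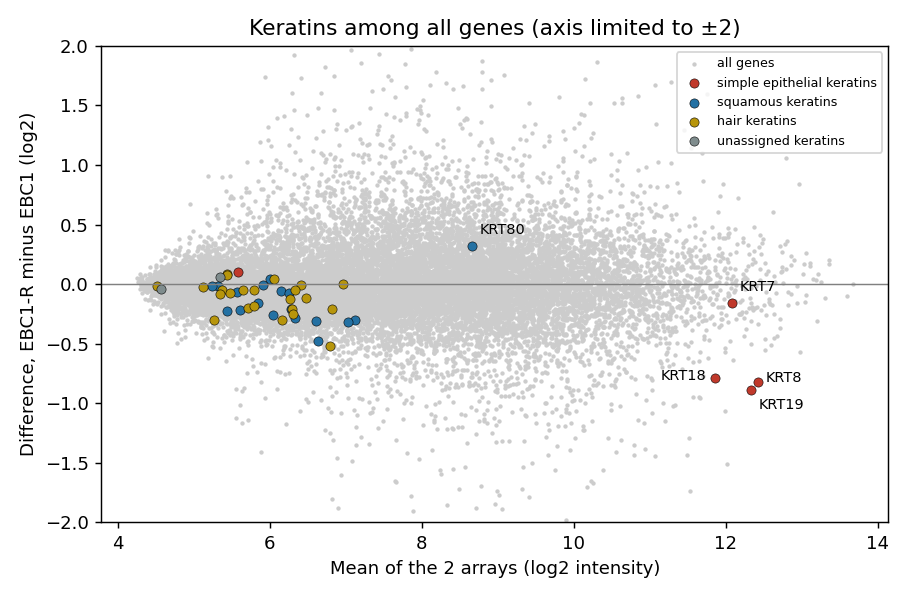
Difference (EBC1-R minus EBC1, log2) against the mean level of the 2 arrays (log2 intensity) for all genes (grey) and the keratins (coloured by class), with the vertical axis limited to 2 units either way. KRT8, KRT18 and KRT19 lie near -0.8 to -0.9 at the bright end, KRT7 lies near 0 at the same brightness, and KRT80 lies above 0.

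Squamous keratins showed smaller differences, and all but 1 of them were under the level filter. KRT80, a type II keratin of many differentiating epithelia, was the exception, at 8.82 in EBC1-R and 8.50 in EBC1. It was the 1 keratin above the filter that was higher in EBC1-R, by 0.32. The basal keratins were low, KRT5 at 6.11 in EBC1-R and 6.17 in EBC1, and its type I partner KRT14 at 6.97 in EBC1-R and 7.26 in EBC1. KRT15, a type I keratin of basal and stem-rich epithelium, was at 6.39 in EBC1-R and 6.87 in EBC1, a difference of -0.48. KRT16, a keratin of wounded and hyperproliferative epithelium, was at 6.87 in EBC1-R and 7.19 in EBC1.

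The other suprabasal keratins lay between 5.23 and 6.44 in EBC1-R and between 5.25 and 6.76 in EBC1, with no difference larger than 1.5-fold. Within the filament pairs, KRT4 and KRT13 differed by -0.29 and -0.31, KRT1 and KRT10 by -0.07 and 0.04, and KRT5 and KRT14 by -0.06 and -0.30. All of these pairs were under the filter, so whether the transcripts were present is not known. KRT13 and KRT4 mark the suprabasal layers of non-cornified mucosa, and KRT1 and KRT10 the suprabasal layers of skin.

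Hair keratins were under the filter in all 23 cases, between 4.51 and 6.96 in EBC1-R and between 4.53 and 7.06 in EBC1. KRT85, a type II keratin of the hair matrix, had their largest difference, at 6.53 in EBC1-R and 7.06 in EBC1, or -0.52. The 9 inner root sheath and companion layer keratins differed by between -0.30 and 0.09, and the 14 hair shaft keratins by between -0.52 and 0.08. KRT23 and KRT222, in no class, differed by 0.06 and -0.04 at levels of 5.37 and 4.55 in EBC1-R, against 5.31 and 4.59 in EBC1.

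The median difference was -0.78 over the 5 simple epithelial, -0.18 over the 18 squamous and -0.07 over the 23 hair keratins, against -0.03 over all genes. The simple epithelial minus the squamous median was -0.60, and the simple epithelial minus the hair median -0.71. With KRT23, which is under the filter, counted as simple epithelial, that class median was -0.47 and the simple epithelial minus the squamous median -0.29. The classes also differ in level, since 4 of 5 simple epithelial keratins, 1 of 18 squamous and 0 of 23 hair keratins passed the filter. Intensities near background compress differences, so class and level cannot be told apart here.

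**Figure D3:**
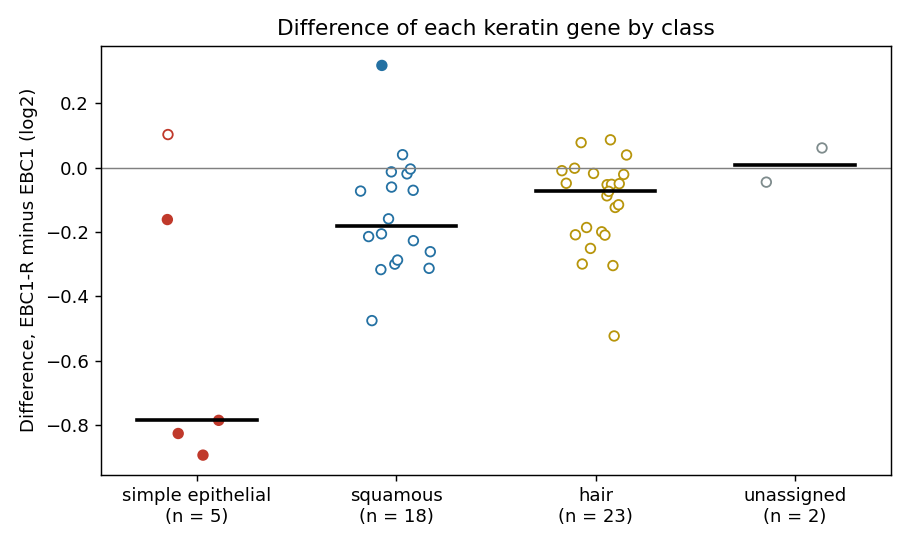
Difference (EBC1-R minus EBC1, log2) of each keratin gene by class, with filled points above the level filter, open points under it and a bar at the class median. KRT8, KRT18 and KRT19 stand apart below -0.7, and the lowest squamous or hair keratin is KRT85 at -0.52.

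Over all classes, 41 of 48 keratins were lower in EBC1-R by any amount, against 55.5% of all genes. Of the 5 above the filter 4 were lower, against 50.2% of all genes above it. Small negative differences were common among the dim keratins. Of the 43 keratins under the filter, 37 were lower in EBC1-R and 6 higher, against 60.8% of all genes under the filter that were lower. Their median difference was -0.07, against -0.05 over all genes under the filter, and each of the 43 was less than 1.5-fold. Across these 43 genes the difference was more negative at a higher mean level (Pearson's r = -0.51, Spearman's rho = -0.49), while over all 9188 genes under the filter r was 0.01 and rho -0.05. All points come from the same pair of arrays and related sequences, so the relation is a description. By chain type, 23 of 28 type I and 18 of 20 type II keratins were lower.

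Probe sets for keratin pseudogenes, which the selection of members leaves out, were also measured. Of 8 probe sets that name a keratin pseudogene, or a keratin or its pseudogene together with other genes, 7 were lower in EBC1-R. In comparison, 55.5% of all genes and 60.8% of genes under the level filter were lower by any amount. The count is of probe sets and the shares are of genes. The probe set of KRT18 and MIR622 given above is 1 of the 8 probe sets, and the others were under the filter. The 2 for KRT17P5, a pseudogene of KRT17, were at 6.17 and 6.37 in EBC1-R and 6.91 and 6.97 in EBC1. The probe set shared by MIR492 and the KRT19 pseudogene KRT19P2 was at 6.15 in EBC1-R and 6.91 in EBC1, a difference of -0.76. KRT18P59 was the exception, at 5.80 in EBC1-R and 5.66 in EBC1. Pseudogenes and several keratins share sequence, and whether keratin transcripts hybridised to probes of their relatives was not tested.

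Genes for proteins that bind or anchor keratin filaments differed in both directions, and PLEC and PPL, which encode linker proteins, had the largest differences. Of 21 measured partners 13 were lower, against 55.5% of all genes, which is a similar share. Plectin (PLEC), which links keratin to hemidesmosomes and other filaments, was at 9.69 in EBC1-R and 10.61 in EBC1, or 1.89-fold lower. Periplakin (PPL), a plakin of desmosomes and the cornified envelope, was at 9.08 in EBC1-R and 9.89 in EBC1, or 1.75-fold lower. The 14-3-3 protein stratifin (SFN), which binds keratin KRT17, was 1.62-fold lower, at 10.80 in EBC1-R and 11.50 in EBC1. FAM83H, which helps organise keratin filaments, was 1.42-fold lower, at 8.54 in EBC1-R and 9.05 in EBC1. The median over the 21 was -0.10. Desmosomal genes lay on both sides of 0, and those given here were named after their values were seen. Desmoplakin (DSP), the main desmosomal anchor of keratin, differed by -0.33, at 9.53 in EBC1-R and 9.86 in EBC1. The desmosomal cadherin DSG2 differed by 0.26, at 12.08 in EBC1-R and 11.82 in EBC1, and the plakophilin PKP2 by 0.24, at 11.02 in EBC1-R and 10.77 in EBC1. The adaptor TRADD, which binds KRT18, had the highest partner difference, 0.36, at 9.16 in EBC1-R and 8.80 in EBC1.

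Transcription factors known to act on keratin genes differed in both directions. Of 20 measured, 12 were lower and 8 higher, a share near the 55.5% of all genes that were lower, and the median difference was -0.03, as over all genes. SOX9 was 2.84-fold lower, at 8.69 in EBC1-R and 10.20 in EBC1. FOSL1, an AP-1 subunit, was 2.71-fold lower, at 10.07 in EBC1-R and 11.50 in EBC1. ELF3, an epithelial ETS factor, was 4.62-fold higher, at 10.06 in EBC1-R and 7.86 in EBC1. TFAP2A, an activator of epidermal keratins, was 1.66-fold higher, at 9.11 in EBC1-R and 8.37 in EBC1. The list thus had no common direction.

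Among 18 other intermediate filament genes, 11 were lower, a share near the 55.5% of all genes. Their median difference was -0.14, and 5 passed the filter. The nuclear lamins LMNA (9.45 in EBC1-R and 10.14 in EBC1) and LMNB1 (7.10 in EBC1-R and 7.70 in EBC1) were 1.61-fold and 1.51-fold lower. LMNB2, the remaining B-type lamin gene, differed by -0.16, and IFFO2, an intermediate filament family member, by 0.22. Vimentin (VIM), the mesenchymal filament gene, was at 11.12 in EBC1-R and 11.22 in EBC1, so vimentin was not higher beside the lower KRT8, KRT18 and KRT19 (named after its value was seen).

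**Figure D4:**
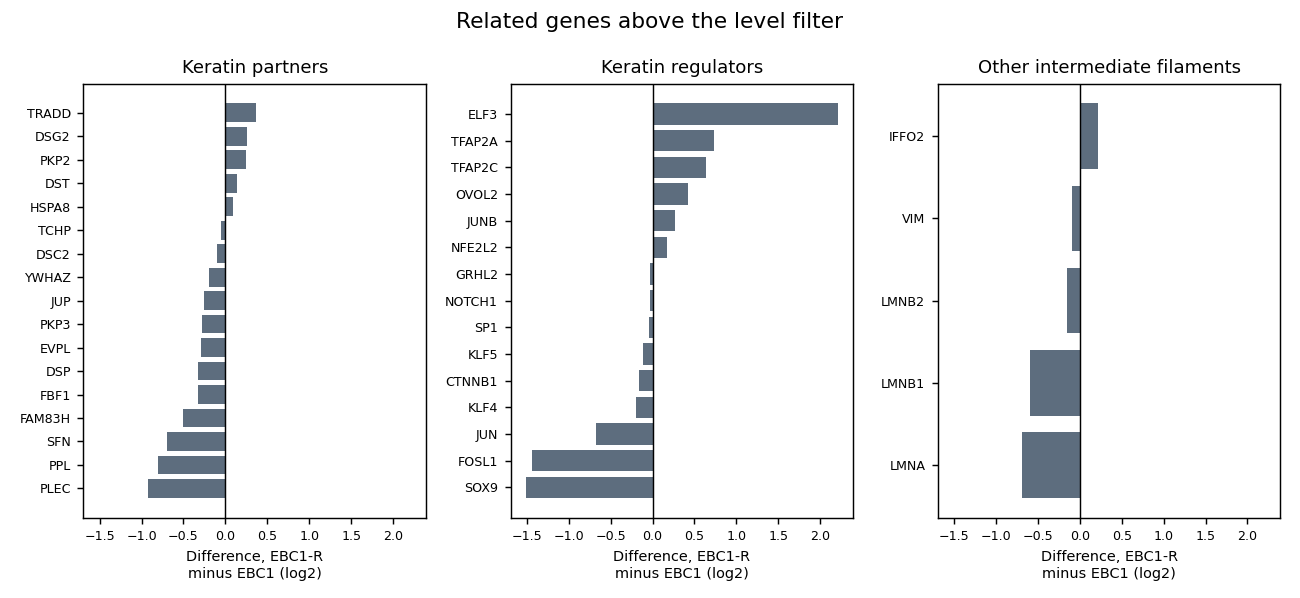
Difference (EBC1-R minus EBC1, log2) of keratin partners, keratin regulators and other intermediate filament genes above the level filter, 1 bar per gene. PLEC, PPL and SFN are the lowest partners, ELF3 is the highest regulator with SOX9 and FOSL1 lowest, and LMNA and LMNB1 are the lowest of the other filament genes.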

How the data were processed

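The study measured RNA of EBC1-R and of EBC1 on 1 one-colour oligonucleotide array each. Per the labels' protocols, 100 ng of total RNA was made into biotin-labelled cDNA. The labels name an HG-U133 array, but the 28869 probe sets match the annotation of a whole-transcript gene array. The authors deposited 1 value per probe set, taken as a log2 intensity from its range of 4.22 to 14.2 in EBC1-R and 4.21 to 14.1 in EBC1. For the log base, background correction and normalization, the sources used here give nothing. The column medians were 6.71 in EBC1-R and 6.73 in EBC1.

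Of the probe sets, 19310 name 1 gene and were averaged per gene, and 51 of them belong to the 48 keratins. Probe sets with several genes (1752) were left out. Symbols were looked up in RefSeq (GRCh38.p14, 19279 matched). Thresholds were 2-fold and 1.5-fold. The members and lists were chosen with earlier results of these data known. Values are printed for keratins above the level filter or 1.5-fold different and for the 4 most different filter-passing genes of each related list. Others printed were chosen after values were seen. The number of arrays limits the precision. Scripts used pandas 2.3.3 and statsmodels 0.14.6 and were tested on simulated data.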

Additional observations from a re-analysis of the deposited data

How the results depend on the processing

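Subtracting the median, subtracting a lowess trend (span 0.2), quantile normalization, adding 16 before the log and using each gene's brightest probe set kept the sign of the simple epithelial, squamous and hair medians and of KRT7, KRT8, KRT15, KRT18, KRT19, KRT80 and KRT85, and moved none of these 7 genes by more than the SD of 0.16 between probe sets. Of these 7 genes, all but KRT18 have 1 probe set, as do all squamous keratins. The brightest-probe-set setting therefore could not change those genes or the squamous median. The SD of 0.16 comes from genes above the level filter, and KRT15 and KRT85 are under it. That SD is no yardstick for a median over several genes. The hair median of -0.07 was -0.02 with the lowess trend subtracted, -0.04 with the median subtracted and -0.05 after quantile normalization, and the squamous median of -0.18 was -0.13 with the lowess trend subtracted. Under these 5 settings KRT8 lay between -0.84 and -0.79, KRT19 between -0.91 and -0.86, KRT7 between -0.19 and -0.13 and KRT80 between 0.30 and 0.35. At a threshold of 1.5-fold, 3 keratins were counted in place of 0 at 2-fold. With KRT23 counted as simple epithelial, the class median was -0.47 and its distance from the squamous median -0.29, since the class then held 6 genes with 2 of them under the filter. Adding probe sets shared with pseudogenes or a microRNA, chosen after seeing the data, gave -0.80 for KRT18. No probe set names several keratins and no other gene, so that planned setting gave no value. No paired analysis was possible because each group has 1 array.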
